A study of Mus musculus with 10 samples.

Results

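Solute carriers are the membrane proteins that move sugars, amino acids, metals, vitamins, fatty acids and inorganic ions between a cell and its surroundings and between its compartments. Their RNA was measured here in macrophages of 6 mouse tissues and in macrophages grown from bone marrow (BMDM). The genes were chosen by their array symbol, Slc followed by a digit, with Slc40a1 and Slc11a1 left out, and by detection on at least 2 of the 10 arrays at a detection p under 0.01. The brightest such probe on average over the arrays stood for each gene. The rule gave 152 genes out of 346 such symbols on the array, which held 17711 named genes in all. A further 27 of the symbols were detected on 1 array and 167 on none. Detection chose the genes, so how widely they were detected is a description: 85 were detected on all 10 arrays and 9 on exactly 2. Nearest inside the threshold, the next-to-smallest detection p was 0.00811 for Slc39a10, 0.00936 for Slc47a1 and 0.00998 for Slc35d3. Nearest outside it was 0.0106 for Slc16a5 and 0.0125 for both Slc24a4 and Slc16a3.

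Most solute carriers work either by letting one substrate down its own gradient or by coupling it to a gradient of sodium, protons or another solute. The family numbers mark sequence relatedness and, for the most part, a shared kind of substrate. Macrophages depend on them to recycle the contents of engulfed cells, above all heme and iron, to take up cystine for glutathione and arginine for nitric oxide or polyamine synthesis, and to carry sugars and lipids into their own metabolism. The symbol pattern also took in 4 genes whose products bind a transporter or stand beside its gene and are no transporters themselves.

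The labels give all mice as male C57BL/6 animals 8 to 10 weeks old and the cells as untreated. Macrophages of the peritoneum, the small intestine and adipose tissue were each measured on 2 arrays. Kupffer cells (liver), alveolar macrophages, red pulp macrophages of the spleen and BMDM, grown with M-CSF for 7 days, were measured on 1 array each. The labels do not tell whether replicates were separate animals, so p-values cover a spread that may be technical only, and groups with 1 array were assumed to vary like the others. All levels below are background-corrected, quantile-normalized log2 signals of 1 probe, and levels of different genes cannot be compared. Each array detected between 22.6% and 26.4% of its probes. Median raw signal split the arrays into a dimmer set (89.8 to 107.9: peritoneal replicate 1, alveolar, Kupffer, splenic, BMDM) and a brighter one (135.7 to 166.5: the other 5), and only the peritoneal group lay in both. Between 107 and 122 of the 152 genes were detected on the dimmer arrays and between 118 and 135 on the brighter ones.

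The marker lists were not all highest where the labels place them. Of the markers detected on some array, all 6 of the peritoneal, 4 of the alveolar and 7 of the adipose list were highest in their own group, as were 4 of 6 of the Kupffer, 5 of 6 of the splenic, 3 of 6 of the intestinal and 2 of 5 of the BMDM list. Gata6 reached 11.61 and 12.11 on the peritoneal arrays, Krt79 14.17 on the alveolar array, Clec4f 14.81 on the Kupffer array, Spic 12.09 on the splenic array, Cx3cr1 13.59 and 13.47 on the intestinal arrays and Cd163 8.03 and 8.17 on the adipose arrays. In the BMDM list, Mmp12 and Gpnmb were highest in BMDM, but Lpl and Fabp5 were highest on the alveolar array and Cd36 on the adipose arrays. Markers of other cells were present on some arrays. Of 13 hepatocyte markers on the array, 9 were detected on the Kupffer array, with a summed linear level of 11300 against 177 to 1670 elsewhere, and so were 10 of 11 endothelial markers, with a summed level of 10400 against 259 to 7310. Cdh5 stands on both the Kupffer and the endothelial list, and at 12.21 it was the highest endothelial marker on the Kupffer array. Of 8 erythroid markers, 6 were detected on the splenic array, where the summed level was 49000, against 16500 on the Kupffer array and 141 to 5280 elsewhere. Of 9 lung epithelial markers, 4 were detected on the alveolar array, with a summed level of 4740 against 77.3 to 222 elsewhere. Of 9 dendritic cell markers, 6 were detected on both intestinal arrays, with a summed level of 5990 to 6410 against 167 to 2740 elsewhere. Of 10 fibroblast and mesothelial markers, 5 were detected on both adipose arrays, with a summed level of 3180 to 3830 against 69.8 to 1270 elsewhere. The adipocyte marker Adipoq was at 8.98 and 9.09 on the adipose arrays. The BMDM array had 1 hepatocyte, 1 erythroid and 1 B cell marker detected, and 0 lung epithelial ones. It also had 3 of 8 platelet, 3 of 11 endothelial, 3 of 10 neutrophil and 2 of 11 T and NK cell markers. The summed level of the T and NK cell markers was 4090 there, against 1320 to 2890 elsewhere. The part of these cells in the results was not tested.

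Transporter levels differed widely between the populations. Of the 152 genes, 128 (84.2%) passed limma's F test for any difference among the 7 groups at an adjusted p under 0.05, where 81% of all 11566 tested transcripts did, so the share lies near the background. A gene that passed the detection rule only through the groups where it is high had to differ, and these counts support nothing by themselves. Among the 85 genes detected on all 10 arrays, 70 (82.4%) passed, against 76.2% of all transcripts detected on all arrays. The difference between the highest and the lowest group mean had a median of 1.82 over the 152 genes, with quartiles at 1.23 and 2.96, and a median of 1.69 over all transcripts. At least an 8-fold range was seen for 37 genes (24.3%), against 20% of all transcripts, from measured means also where no array of a group detected the probe. With such groups at the lowest detected level, 28 genes (18.4%) reached 8-fold, against 14% of all transcripts, and the median was 1.53 against 1.41. The median measured range was widest for carriers of carboxylates and fatty acids (2.88, 10 genes) and of inorganic ions (2.68, 13 genes), and narrowest for carriers of peptides, organic ions and other substrates (1.24, 15 genes). BMDM had the highest mean of 46 genes and the splenic array of 37, while the other 5 groups were highest for 9 to 20 each. These shares, 30.3% for BMDM and 24.3% for the splenic array, compare with 21.1% and 16.2% over all transcripts, where the same groups led.

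**Figure D1:**
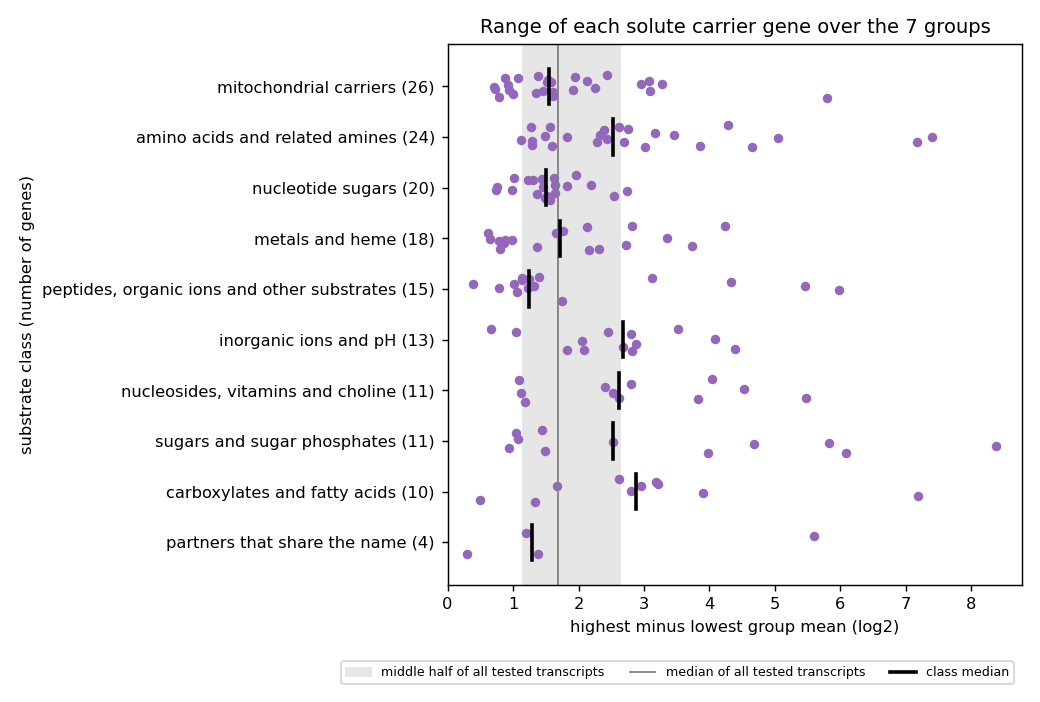
Difference between the highest and the lowest of the 7 group means (log2, x axis) for each of the 152 solute carrier genes, by substrate class (y axis, number of genes in brackets); 1 point is 1 gene, its vertical place within a row has no meaning, black bars are class medians, and the grey band and line are the quartiles (1.15 and 2.64) and the median (1.69) of all tested transcripts. Every class holds genes inside and beyond the grey band, and the widest gene, Slc45a3, lies at 8.38.

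A gene was called set apart in 1 group when it passed the limma test against each of the other 6 groups by the largest of the p-values, differed at least 2-fold from the nearest group by measured means and was detected on every array of the higher side. Some genes, such as Slc6a13, Slc1a2, Slc45a3, Slc39a4 and Slc4a8, were detected only in their highest groups. They passed the detection rule through those groups, so their higher calls are descriptions and no support. As higher, 6 solute carrier genes (3.95%) were set apart in splenic macrophages, where 1.02% of all transcripts were. BMDM had 4 (background 2.18%), alveolar macrophages 2 (1.39%), intestinal macrophages 2 (2.67%), peritoneal macrophages 1 (1.88%), Kupffer cells 1 (0.32%) and adipose macrophages 0 (1.18%). At an unadjusted p under 0.05 (limma) the adipose count was also 0, against 180 of all transcripts. As lower, peritoneal macrophages had 2 (background 0.726%), splenic macrophages 2 (0.648%), intestinal macrophages 2 (0.545%), adipose macrophages 1 (0.277%), BMDM 1 (2.48%), alveolar macrophages 0 (1.18%) and Kupffer cells 0 (0.0692%). At an unadjusted p the alveolar and Kupffer counts were also 0, against 184 and 36 of all transcripts. In all 16 cases of a higher level and 8 of a lower one, no array of the group overlapped the others. The rule itself nearly ensures this and no share over all transcripts is given, so it adds no support to the calls. The counts rest on few genes: with 1 adipose or intestinal array left out, the total of 16 ran from 8 (adipose replicate 1) through 9 (adipose replicate 2) to 10 and 11 (intestinal replicates 2 and 1). The total of 8 fell to 1 or 2 without adipose replicate 1 or 2, and to 2 or 3 without intestinal replicate 1 or 2. As higher, the splenic count was 3 without either adipose array, and the Kupffer count 0 without either adipose array but 3 without either peritoneal one. The alveolar count was 0 without adipose replicate 1 and 1 without any other intestinal or adipose array, the peritoneal count was 0 without any 1 of those 4, and the intestinal count was 1 or 0 without its replicate 1 or 2. As lower, the splenic count was 0 without any 1 of those 4 arrays, and the intestinal count was 0 without the first 3 of them and 1 without adipose replicate 2. The peritoneal count was 4 without peritoneal replicate 2 and 1 without intestinal replicate 1 or either adipose array. The adipose count was 2 without either peritoneal array and 0 without any intestinal or adipose one, the BMDM count 0 without either adipose array, and the alveolar count 2 without peritoneal replicate 1. For single genes below, a call is said to be lost where its adjusted p passed 0.05, over up to 16 alternative settings. Of 24 such calls the p held in every setting for 3, and for 14 the difference dropped under 2-fold in at least 1 setting.

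**Figure D2:**
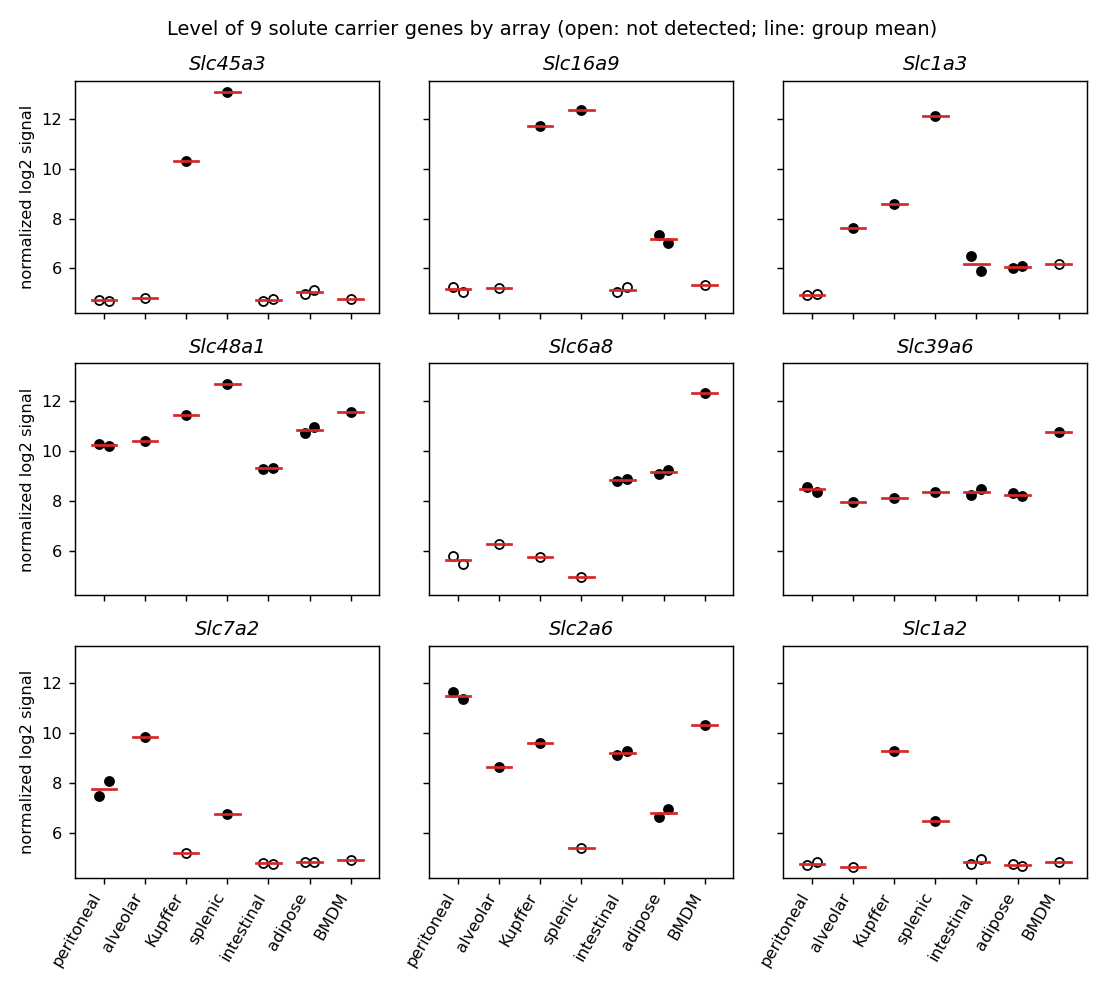
Normalized log2 signal (y axis) of 9 solute carrier genes on each of the 10 arrays by group (x axis); points are arrays (open where the probe was not detected), and red lines are group means, drawn over 2 arrays for peritoneal, intestinal and adipose macrophages and over 1 elsewhere. Slc45a3 and Slc16a9 stand high on the Kupffer and splenic arrays, Slc6a8 and Slc39a6 on the BMDM array, Slc7a2 on the alveolar array, Slc2a6 on the peritoneal arrays and Slc1a2 on the Kupffer array.

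All 24 carriers of amino acids and related amines differed among the groups. Slc6a8, the creatine transporter, was at 5.79 and 5.46 in peritoneal, 6.26 in alveolar, 5.73 in Kupffer, 4.93 in splenic, 8.80 and 8.88 in intestinal and 9.09 and 9.23 in adipose macrophages, and 12.32 in BMDM. It was detected on the intestinal, adipose and BMDM arrays only, and the BMDM array lay above all others. The BMDM level was 8.94-fold that of adipose macrophages (limma, adjusted p = 0.00107), and the call held in all 16 alternatives.

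The glutamate transporters Slc1a3 and Slc1a2 (known in brain as GLAST and GLT-1) were high in different macrophages. Slc1a3 was at 4.92 and 4.97 in peritoneal, 7.64 in alveolar, 8.58 in Kupffer, 12.11 in splenic, 6.48 and 5.91 in intestinal and 6.04 and 6.09 in adipose macrophages, and 6.16 in BMDM. Splenic macrophages were above all others, 11.6-fold over Kupffer cells (adjusted p = 0.00238), a call that held in all 16 alternatives. Slc1a2 was at 4.73 and 4.83 in peritoneal, 4.63 in alveolar, 9.29 in Kupffer, 6.48 in splenic, 4.77 and 4.95 in intestinal and 4.75 and 4.67 in adipose macrophages, and 4.83 in BMDM. It was detected on the Kupffer and splenic arrays only, 6.97-fold higher in the former (adjusted p = 0.00347). Over 16 alternatives its p ran from 0.000435 to 0.0874, and the call was lost without adipose replicate 1 or 2 and with median scaling. The Kupffer array is also the one with 9 of 13 hepatocyte and 10 of 11 endothelial markers detected, the latter with Cdh5 of the Kupffer list. In such bulk samples fewer cells of a type and less RNA per cell cannot be told apart.

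Slc7a2, a carrier of arginine and other cationic amino acids, was at 7.49 and 8.08 in peritoneal, 9.84 in alveolar, 5.19 in Kupffer, 6.75 in splenic, 4.80 and 4.77 in intestinal and 4.84 and 4.84 in adipose macrophages, and 4.92 in BMDM. The alveolar array stood above the peritoneal arrays, which stood above the rest, with a 4.14-fold gap between alveolar and peritoneal macrophages (adjusted p = 0.00753). Over the alternatives p ran from 0.000138 to 0.689, and the call was lost without adipose replicate 1 and with median scaling. Slc7a7, a light chain of the y+L system that exports cationic amino acids, was at 8.63 and 8.46 in peritoneal, 8.83 in alveolar, 9.69 in Kupffer, 11.15 in splenic, 8.83 and 8.87 in intestinal and 8.59 and 8.89 in adipose macrophages, and 9.07 in BMDM. Slc7a7 was 2.75-fold higher on the splenic than on the Kupffer array (adjusted p = 0.0308), a call lost in 6 of 16 alternatives (p 0.00423 to 0.363), among them without any 1 of the intestinal or adipose arrays. It is named here after its values were seen, since the naming rule stopped at 5 splenic genes. Slc6a13, a transporter of GABA, was at 4.87 and 4.73 in peritoneal, 4.66 in alveolar, 6.16 in Kupffer, 5.26 in splenic, 7.56 and 7.80 in intestinal and 4.67 and 4.85 in adipose macrophages, and 4.99 in BMDM. It was detected on the intestinal arrays only, 2.86-fold higher than in Kupffer cells by measured means (limma, adjusted p = 0.00637). With undetected groups at their lowest detected level it was at least 2.54-fold higher, a bound that was not tested. Only the intestinal arrays brought it past the detection rule, so the call is a description. Without intestinal replicate 2 its call was lost, and p ran from 0.000984 to 0.0695 over 15 alternatives.

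Slc7a11, which exchanges extracellular cystine for glutamate, was at 5.47 and 4.98 in peritoneal, 8.11 in alveolar, 5.91 in Kupffer, 5.22 in splenic, 6.60 and 6.65 in intestinal and 5.15 and 5.44 in adipose macrophages, and 8.39 in BMDM. The BMDM and alveolar arrays were the highest, the intestinal arrays came next, and the probe was not detected on the other 6. Slc7a5, the light chain of the large neutral amino acid transporter, was at 7.87 and 8.82 in peritoneal, 10.52 in alveolar, 7.76 in Kupffer, 8.07 in splenic, 8.44 and 8.62 in intestinal and 8.01 and 8.29 in adipose macrophages, and 10.51 in BMDM. Its alveolar and BMDM levels were nearly equal and lay above all 8 other arrays. Slc38a1, a sodium-coupled glutamine transporter, was detected on the alveolar (6.48) and BMDM (6.44) arrays alone. Slc3a2, the heavy chain that Slc7a11, Slc7a5 and Slc7a7 share, had its highest level in adipose macrophages (6.37 and 6.57) and was detected on 7 arrays. With undetected groups at their lowest detected level, its range over the groups was only 1.25-fold, so the order of the groups is uncertain. Slc6a6, the taurine transporter, was detected on all arrays and had the narrowest range of the class among such genes, 1.29, between 12.36 and 13.91.

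Promoter sequence is shown for 3 genes, picked among those with a match to 1 of the elements named next. They are Slc7a11, high in alveolar macrophages and BMDM, and Slc7a7 and Slc45a3, high in splenic macrophages. Slc7a7 was named after its values were seen. Slc6a8 and Slc1a3, set apart as higher in BMDM and in splenic macrophages, gave no match. The 250 bases before the annotated start were searched on both strands for TGATGNAA, the core of the element bound by Atf4, a factor of the amino acid response, and for TGACNNNGC, the core of the antioxidant response element. RefSeq promoters (GRCm38.p6) were matched for 118 of the 152 genes, as 159 promoters. TGATGNAA was found in 3.14% of them (5 promoters) and in 3.45% of all 32851 promoters. TGACNNNGC was found in 18.2% (29 promoters) and in 10.2% of all. The promoter of Slc7a11 (chr3:50443614-50443863, minus strand) holds 2 matches to TGATGNAA, in opposite orientation, 66 and 47 bases before the start. A promoter of Slc7a7 (chr14:54417945-54418194, minus strand) holds 1 match, 141 bases before the start. A promoter of Slc45a3 (chr1:131962665-131962914, plus strand) holds 1 match to TGACNNNGC, 163 bases before the start. Capitals mark the matches, each line reads 5′ to 3′ towards the start, and a match is a description of letters only.
Slc7a11: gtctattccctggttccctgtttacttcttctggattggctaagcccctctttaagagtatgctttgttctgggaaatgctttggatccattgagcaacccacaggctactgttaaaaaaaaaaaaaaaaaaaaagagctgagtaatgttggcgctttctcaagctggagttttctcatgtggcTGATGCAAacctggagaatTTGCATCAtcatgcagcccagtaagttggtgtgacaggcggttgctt
Slc7a7: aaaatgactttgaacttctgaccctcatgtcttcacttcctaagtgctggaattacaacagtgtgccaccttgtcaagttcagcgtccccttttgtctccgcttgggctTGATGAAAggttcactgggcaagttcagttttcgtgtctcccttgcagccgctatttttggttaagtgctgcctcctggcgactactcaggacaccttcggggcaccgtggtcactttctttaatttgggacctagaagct
Slc45a3: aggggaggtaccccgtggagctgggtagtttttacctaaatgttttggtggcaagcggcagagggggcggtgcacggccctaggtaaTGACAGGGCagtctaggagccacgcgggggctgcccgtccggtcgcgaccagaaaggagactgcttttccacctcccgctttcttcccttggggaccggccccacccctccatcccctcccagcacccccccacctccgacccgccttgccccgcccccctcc

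Of 11 genes in the families of sugar and sugar phosphate carriers, 10 differed among the groups. Slc45a3, of a family of proton-coupled sugar transporters, was at 4.74 and 4.69 in peritoneal, 4.82 in alveolar, 10.29 in Kupffer, 13.09 in splenic, 4.68 and 4.78 in intestinal and 4.97 and 5.13 in adipose macrophages, and 4.76 in BMDM. It was detected on the splenic and Kupffer arrays alone, and the range of 8.38 was the widest of all 152 genes, at least a 151-fold difference between the splenic and the lowest group. Its splenic level was 6.95-fold that of Kupffer cells (adjusted p = 0.00201), a call that held in all 16 alternatives.

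Slc2a6, a facilitative hexose transporter of internal membranes, was at 11.66 and 11.36 in peritoneal, 8.64 in alveolar, 9.63 in Kupffer, 5.42 in splenic, 9.12 and 9.31 in intestinal and 6.64 and 6.97 in adipose macrophages, and 10.34 in BMDM. The peritoneal arrays were the highest, 2.26-fold above BMDM (limma, adjusted p = 0.0469). The splenic array was the lowest and undetected, 2.61-fold below adipose macrophages by measured means (limma, adjusted p = 0.0337). With that array at its lowest detected level it was at least 1.48-fold below, a bound that was not tested. Both calls were weak: p ran to 0.124 for the high one, lost in 8 of 16 alternatives, and to 0.267 for the low one, lost in 10. Leaving out any 1 intestinal or adipose array ended each of them. Slc37a2, a glucose-6-phosphate carrier of the endoplasmic reticulum, was at 5.19 and 5.24 in peritoneal, 7.69 in alveolar, 9.46 in Kupffer, 9.95 in splenic, 9.72 and 9.84 in intestinal and 10.56 and 10.34 in adipose macrophages, and 11.05 in BMDM. Neither peritoneal array detected it while all others did. The measured peritoneal mean was 5.57-fold below alveolar macrophages (limma, adjusted p = 0.000602). With the peritoneal arrays at their lowest detected level it was at least 2.9-fold below, a bound that was not tested. Another, dimmer probe of Slc37a2 did not set the peritoneal arrays apart (difference 0.34, adjusted p = 0.855), with 5.08 and 5.23 there against 4.82 to 6.09 elsewhere. The call was also lost with median scaling (adjusted p = 0.0578) and held in the other 14 of 16 alternatives.

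The glucose transporters Slc2a3 and Slc2a1 were highest in different groups. Slc2a3 was at 5.56 and 4.90 in peritoneal, 5.85 in alveolar, 8.90 in Kupffer, 7.54 in splenic, 9.87 and 9.95 in intestinal and 8.37 and 8.45 in adipose macrophages, and 8.79 in BMDM. The intestinal arrays were the highest, and the peritoneal and alveolar arrays did not detect it. Slc2a1 was at 7.67 and 7.48 in peritoneal, 8.09 in alveolar, 8.87 in Kupffer, 7.18 in splenic, 8.56 and 8.82 in intestinal and 5.76 and 6.33 in adipose macrophages, and 10.02 in BMDM. The BMDM array was above all others and the adipose arrays below all others. Slc5a12, which by textbook knowledge carries lactate rather than sugar, had the narrowest range of the class, 0.94.

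Of 10 carriers of carboxylates and fatty acids, 8 differed among the groups. Slc16a9, of the monocarboxylate transporter family, was at 5.27 and 5.04 in peritoneal, 5.22 in alveolar, 11.71 in Kupffer, 12.34 in splenic, 5.05 and 5.26 in intestinal and 7.34 and 7.01 in adipose macrophages, and 5.35 in BMDM. The splenic and Kupffer arrays lay far above the adipose arrays, and the probe was not detected on the remaining 6. Slc13a2, a sodium-coupled carrier of citrate and succinate, was at 4.82 and 4.57 in peritoneal, 5.97 in alveolar, 5.65 in Kupffer, 8.60 in splenic, 4.73 and 5.15 in intestinal and 6.21 and 6.60 in adipose macrophages, and 5.64 in BMDM. Slc13a2 on the splenic array was 4.58-fold above adipose macrophages (adjusted p = 0.0105), and the call was lost without adipose replicate 1 or 2 and with median scaling, with p between 0.00148 and 0.461.

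Slc16a10, a carrier of aromatic amino acids, was at 7.17 and 7.18 in peritoneal, 8.35 in alveolar, 8.36 in Kupffer, 9.30 in splenic, 6.17 and 6.06 in intestinal and 7.48 and 7.17 in adipose macrophages, and 9.21 in BMDM. The intestinal arrays were the lowest, 2.09-fold below peritoneal macrophages (adjusted p = 0.0133), and the splenic and BMDM arrays the highest. The low call was lost in 6 of 16 alternatives (p 0.0073 to 0.8), among them without either intestinal array or adipose replicate 1. Slc27a1, a fatty acid transport protein, was at 8.08 and 8.71 in peritoneal, 8.39 in alveolar, 7.99 in Kupffer, 7.79 in splenic, 8.12 and 8.33 in intestinal and 10.85 and 10.80 in adipose macrophages, and 11.01 in BMDM. BMDM and both adipose arrays stood above the other 7, which lay between 7.79 and 8.71. Slc27a2, the very long chain fatty acid ligase and transporter best known from liver and kidney, was detected on the Kupffer array (7.66) and the intestinal arrays (6.56 and 6.58) only. Slc16a6, detected on all arrays, did not pass the F test (adjusted p = 0.0867), with levels from 8.73 to 10.07.

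Of 11 carriers of nucleosides, vitamins and choline, 10 differed. Slc52a3, a riboflavin transporter, was at 7.34 and 7.84 in peritoneal, 10.69 in alveolar, 5.22 in Kupffer, 5.55 in splenic, 8.89 and 9.04 in intestinal and 5.73 and 6.14 in adipose macrophages, and 5.94 in BMDM. The alveolar array was 3.31-fold above the intestinal arrays (adjusted p = 0.0194), and these stood above the rest. The call was lost without any 1 of the intestinal or adipose arrays and with median scaling, with p from 0.00138 to 1. Slc44a2, a choline transporter-like protein, was at 11.28 and 10.57 in peritoneal, 10.95 in alveolar, 12.31 in Kupffer, 13.12 in splenic, 11.05 and 11.11 in intestinal and 8.52 and 8.67 in adipose macrophages, and 10.31 in BMDM. The adipose arrays were below all others, 3.28-fold below BMDM (adjusted p = 0.0335). This low call was lost in 9 of 16 alternatives (p 0.00055 to 1), among them without either intestinal or either adipose array.

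Slc44a1, a choline transporter, was at 10.48 and 10.89 in peritoneal, 7.69 in alveolar, 10.24 in Kupffer, 6.65 in splenic, 10.29 and 10.32 in intestinal and 9.96 and 9.84 in adipose macrophages, and 10.40 in BMDM. The splenic array was the lowest and the alveolar array next, and the other 8 lay between 9.84 and 10.89. Slc46a3, a lysosomal member of the folate transporter family, was at 8.58 and 8.20 in peritoneal, 10.08 in alveolar, 11.05 in Kupffer, 12.22 in splenic, 11.18 and 11.15 in intestinal and 10.98 and 11.19 in adipose macrophages, and 9.19 in BMDM. The splenic array was the highest, and the peritoneal and BMDM arrays were the lowest. Slc23a2, a sodium-coupled vitamin C transporter, was not detected on either peritoneal array (5.44 and 5.28) and was detected on all others (6.25 to 8.16). The measured peritoneal mean was 2.38-fold below the intestinal one (limma, adjusted p = 0.0431). With the peritoneal arrays at their lowest detected level it was at least 1.37-fold below, a bound that was not tested. The call was lost in 11 of 16 alternatives (p 0.0263 to 0.653), among them without peritoneal replicate 2, intestinal replicate 1 or either adipose array. Slc19a2, a thiamine transporter, had the narrowest range among the class's genes detected everywhere, 1.13.

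Of 18 carriers of metals and heme, 13 differed among the groups. Slc48a1, which brings heme out of the phagolysosome, was detected on every array at 10.29 and 10.18 in peritoneal, 10.42 in alveolar, 11.44 in Kupffer, 12.67 in splenic, 9.30 and 9.34 in intestinal and 10.70 and 10.96 in adipose macrophages, and 11.57 in BMDM. The splenic array was the highest, followed by BMDM and Kupffer, and the intestinal arrays were the lowest, with a 10.2-fold range over the groups. The splenic array is also the one with 6 of 8 erythroid markers detected. The iron importer Slc11a2 was at 7.01 and 7.13 in peritoneal, 6.78 in alveolar, 8.30 in Kupffer, 8.51 in splenic, 8.42 and 8.58 in intestinal and 8.43 and 8.34 in adipose macrophages, and 9.10 in BMDM. BMDM was above all other arrays and the peritoneal and alveolar arrays were the lowest.

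Among zinc importers, Slc39a6 was at 8.56 and 8.35 in peritoneal, 7.96 in alveolar, 8.10 in Kupffer, 8.35 in splenic, 8.25 and 8.47 in intestinal and 8.30 and 8.19 in adipose macrophages, and 10.77 in BMDM. BMDM stood 4.95-fold above the peritoneal mean (adjusted p = 0.00305), while the other 9 arrays lay within 7.96 to 8.56. Slc39a4 was at 5.32 and 5.38 in peritoneal, 5.45 in alveolar, 6.12 in Kupffer, 6.51 in splenic, 5.53 and 5.62 in intestinal and 4.86 and 5.41 in adipose macrophages, and 8.87 in BMDM. Only the splenic and BMDM arrays detected it, BMDM 5.12-fold higher (adjusted p = 0.0063). Both calls were lost under median scaling alone of 16 alternatives (highest adjusted p 0.13 and 0.079). The zinc exporter Slc30a1 had its highest level in Kupffer cells (11.83) and splenic macrophages (11.54), against 9.11 to 10.90 elsewhere. Slc31a2, a copper transporter-like protein, was lowest on the splenic array (6.66, against 8.00 to 8.43 elsewhere), 2.53-fold below alveolar macrophages (adjusted p = 0.0343). That call was lost in 6 of 16 alternatives (p 0.00262 to 1), among them without any 1 of the intestinal or adipose arrays. Slc41a2, a magnesium transporter, was at 7.68 and 8.26 in peritoneal, 6.68 in alveolar, 4.65 in Kupffer, 4.74 in splenic, 5.60 and 5.80 in intestinal and 8.18 and 8.44 in adipose macrophages, and 8.89 in BMDM. BMDM was the highest, the peritoneal and adipose arrays followed, and the Kupffer, splenic and intestinal arrays did not detect it. Slc39a7, which moves zinc out of the endoplasmic reticulum and Golgi, did not pass the F test (adjusted p = 0.382) and had the narrowest range of the class, 0.61.

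Of 13 carriers of inorganic ions, 11 differed. Slc20a2, a phosphate importer, was detected on all arrays at 7.53 and 7.72 in peritoneal, 7.35 in alveolar, 7.77 in Kupffer, 10.15 in splenic, 7.94 and 7.97 in intestinal and 8.11 and 8.37 in adipose macrophages, and 7.98 in BMDM. The splenic level was 3.75-fold above adipose macrophages (adjusted p = 0.00614), a call lost without adipose replicate 1 and with median scaling (p 0.000652 to 1). Slc4a8, a sodium-driven chloride and bicarbonate exchanger, was at 4.61 and 4.62 in peritoneal, 4.90 in alveolar, 7.39 in Kupffer, 5.33 in splenic, 8.77 and 8.64 in intestinal and 4.78 and 4.64 in adipose macrophages, and 4.74 in BMDM. The intestinal arrays were 2.49-fold above the Kupffer array (adjusted p = 0.00766), and no other array detected it. The call was lost without either intestinal array (p 0.00119 to 0.095). Slc9a9, a sodium and proton exchanger of endosomes, was at 5.39 and 5.84 in peritoneal, 5.16 in alveolar, 8.69 in Kupffer, 8.44 in splenic, 8.30 and 8.29 in intestinal and 9.40 and 9.45 in adipose macrophages, and 5.03 in BMDM. The adipose arrays were the highest, and the peritoneal, alveolar and BMDM arrays did not detect it. Slc12a9, of the cation and chloride cotransporter family, was highest on the intestinal arrays (9.38 and 9.31) and lowest on the alveolar array (5.83). Slc8a1, the plasma membrane sodium and calcium exchanger, was highest in splenic (11.34) and lowest in peritoneal macrophages (8.69 and 8.23). Slc26a6, an anion exchanger, did not pass the F test (adjusted p = 0.221) and lay between 7.13 and 7.88.

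Of 26 mitochondrial carriers, 22 differed. Slc25a33, a pyrimidine nucleotide carrier, was at 4.62 and 4.98 in peritoneal, 8.08 in alveolar, 10.60 in Kupffer, 8.76 in splenic, 7.40 and 7.23 in intestinal and 5.66 and 6.06 in adipose macrophages, and 8.55 in BMDM. The Kupffer array was the highest, and both peritoneal arrays and adipose replicate 1 did not detect it. Slc25a37 (mitoferrin 1), which brings iron into the mitochondrion and is best known from red cell precursors, was at 8.71 and 9.10 in peritoneal, 6.62 in alveolar, 6.50 in Kupffer, 9.44 in splenic, 7.49 and 7.45 in intestinal and 9.77 and 9.77 in adipose macrophages, and 8.07 in BMDM. Its highest levels were on the adipose arrays, followed by the splenic and peritoneal ones, while the Kupffer and alveolar arrays were the lowest. Slc25a36, also a pyrimidine nucleotide carrier, was detected on all arrays but the intestinal ones (4.95 and 5.08, against 6.10 to 8.11 elsewhere). With the intestinal arrays at their lowest detected level it was at least 1.21-fold below adipose macrophages, a bound that was not tested. By measured means it was called 2.16-fold below adipose macrophages (limma, adjusted p = 0.00864). This call was lost in 7 of 16 alternatives (p 0.000883 to 0.27), among them without any 1 of the intestinal or adipose arrays.

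Slc25a22, a glutamate carrier, was at 7.45 and 7.80 in peritoneal, 7.56 in alveolar, 8.31 in Kupffer, 8.82 in splenic, 8.60 and 8.54 in intestinal and 8.21 and 8.31 in adipose macrophages, and 10.00 in BMDM. BMDM was 2.26-fold above the splenic array (adjusted p = 0.0385), a call lost in 7 of 16 alternatives (p 0.00297 to 1), among them without any 1 of the intestinal or adipose arrays. Slc25a24, a calcium-regulated carrier of ATP-Mg and phosphate, was highest in BMDM (9.81) and lowest on the splenic and intestinal arrays (6.88, 6.59 and 6.86). Slc25a5, the ADP and ATP exchanger, did not pass the F test (adjusted p = 0.072) and lay between 13.19 and 14.10.

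Of 20 carriers in the nucleotide sugar family, 16 differed, 0 were set apart in 1 group (1 as higher in peritoneal macrophages at an unadjusted p), and no range exceeded 2.74. That widest gene, Slc35e4, was highest in BMDM (7.35) and undetected on 5 arrays, but its peritoneal replicates differed by more than most (5.27 and 6.44). Slc35g1 was highest on the adipose arrays (8.21 and 8.39) and next on the alveolar array (7.54). Slc35c2, reported to act in GDP-fucose supply to the Golgi, was highest on the splenic and intestinal arrays (11.38, 11.24 and 11.20) and lowest on the peritoneal arrays (9.25 and 9.60). Its further probe, detected on all 10 arrays (r = 0.52), was also highest on the splenic array (9.25). That probe did not share the high intestinal level (7.49 and 7.56, below 9.04 on the alveolar and 8.86 on the BMDM array). Slc35a5 was lowest in BMDM (4.76, against 6.06 to 7.10). Slc35b4, a carrier of UDP-xylose and UDP-N-acetylglucosamine, did not pass the F test (adjusted p = 0.0729), with a range of 0.74.

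Of 15 carriers of peptides, organic ions and other substrates, 11 differed. Slc15a2, a proton-coupled peptide transporter that also takes up bacterial peptides, was at 4.96 and 4.95 in peritoneal, 7.79 in alveolar, 5.89 in Kupffer, 10.78 in splenic, 8.53 and 8.57 in intestinal and 9.07 and 8.87 in adipose macrophages, and 4.80 in BMDM. The splenic array was 3.51-fold above adipose macrophages (adjusted p = 0.00505), and the peritoneal, Kupffer and BMDM arrays did not detect it. The call was lost without adipose replicate 2 and with median scaling (p 0.000526 to 0.942). Slc14a1, a urea transporter best known from red cells and kidney, was at 4.86 and 4.79 in peritoneal, 5.04 in alveolar, 8.34 in Kupffer, 8.60 in splenic, 9.36 and 9.25 in intestinal and 10.22 and 10.11 in adipose macrophages, and 4.71 in BMDM. The adipose arrays were the highest, and the peritoneal, alveolar and BMDM arrays did not detect it. Slc22a17, described as a receptor for lipocalin 2, was at 8.59 and 9.02 in peritoneal, 8.08 in alveolar, 7.31 in Kupffer, 8.01 in splenic, 7.47 and 7.10 in intestinal and 6.50 and 6.64 in adipose macrophages, and 4.48 in BMDM. BMDM was the only array without detection, 4.26-fold below adipose macrophages by measured means (limma, adjusted p = 0.00623). With BMDM at its lowest detected level it was at least 1.32-fold below, a bound that was not tested. The call was lost without either adipose array and with median scaling (p 0.000489 to 0.263). Slc10a6, a carrier of sulphated steroids, was detected on the peritoneal (7.22 and 7.68) and adipose (7.83 and 7.58) arrays only. Slc22a7, an organic anion transporter, did not pass the F test (adjusted p = 0.572) and had a range of 0.39.

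Of the 4 genes that share the name only, 3 differed. Slc9a3r2 (NHERF2), a scaffold that ties sodium and proton exchangers to the cytoskeleton, was at 10.71 and 10.32 in peritoneal, 8.76 in alveolar, 8.85 in Kupffer, 4.98 in splenic, 10.49 and 10.50 in intestinal and 9.14 and 9.31 in adipose macrophages, and 4.92 in BMDM. The peritoneal and intestinal arrays were the highest, and the splenic and BMDM arrays did not detect it. Its relative Slc9a3r1 (NHERF1) was detected everywhere, from 9.45 to 10.83, and Slc7a6os, named for lying opposite Slc7a6, from 8.05 to 9.25. Slc4a1ap, an adaptor protein, had the narrowest range of all 152 genes, 0.30, with levels from 9.80 to 10.10 (adjusted p = 0.739).

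**Figure D3:**
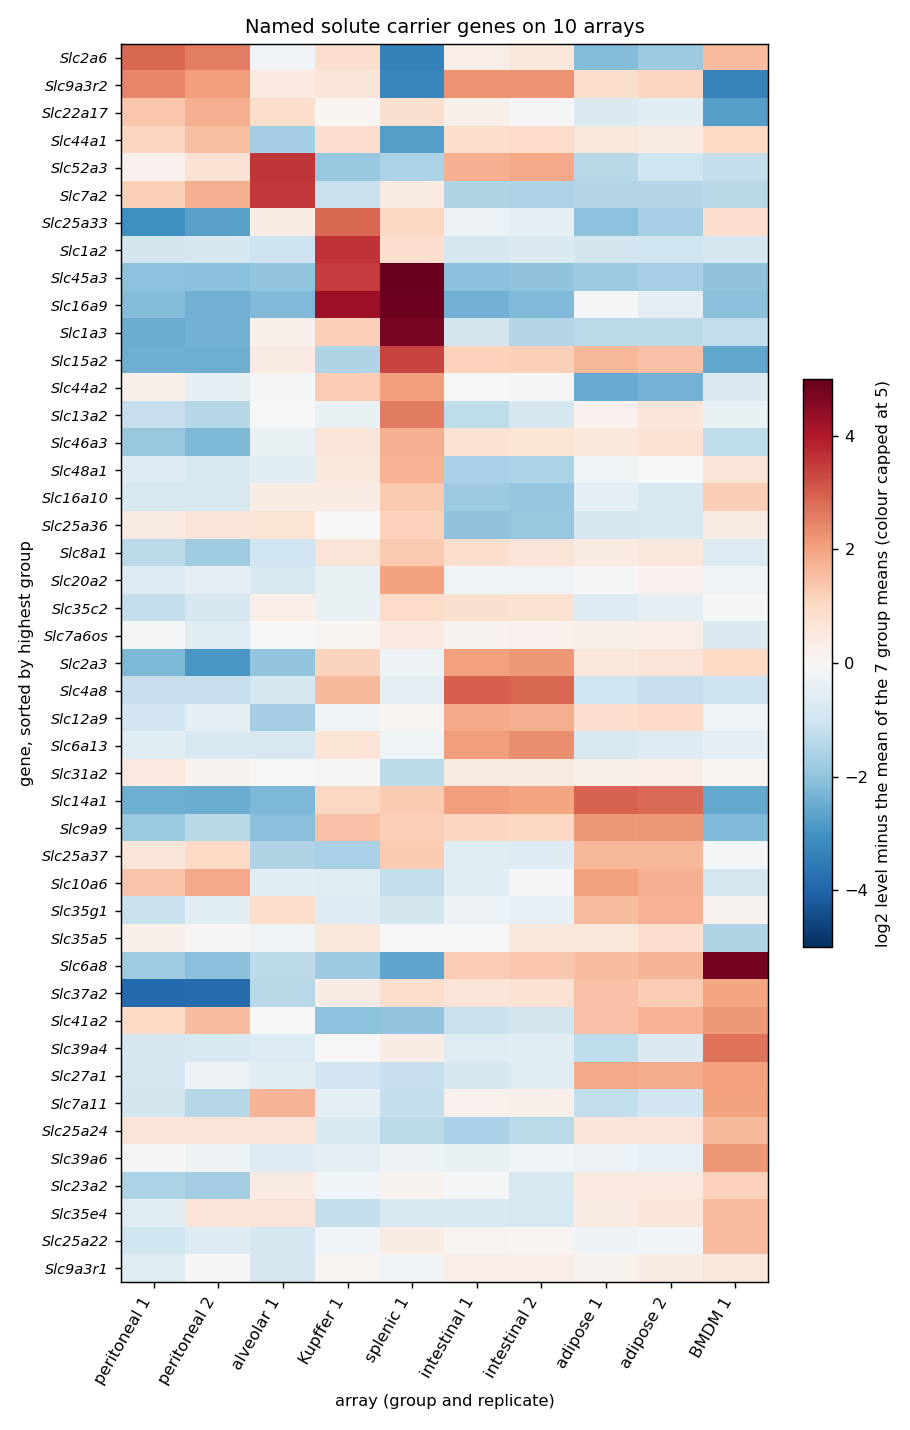
Levels of the named solute carrier genes (rows, without those named for a narrow range) on the 10 arrays (columns), as the log2 level minus the mean of the gene's 7 group means, with colours capped at 5; genes are sorted by the group with the highest mean. The splenic column is high for Slc45a3, Slc16a9 and Slc1a3 (13.09, 12.34 and 12.11); the Kupffer column is also high for Slc45a3 and Slc16a9, and the peritoneal arrays are low for Slc37a2 (5.19 and 5.24).

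The BMDM were compared with the equally weighted mean of the 6 tissue groups, which asks how cultured macrophages differ from those of tissues. Of the 152 genes, 57 (37.5%) were higher in BMDM and 33 (21.7%) lower at an adjusted p under 0.05 (limma), where 23.2% of all transcripts were higher and 31.2% lower. The median difference was 0.23 over the 152 genes and -0.11 over all transcripts. Higher calls thus made up 63.3% of the calls among these genes and 42.7% among all transcripts. With median scaling in place of quantile normalization the split was 24 higher and 25 lower (49% higher), and 31% higher among all transcripts, whose median moved from -0.11 to -0.28. Among the 85 genes detected on all arrays, 30 (35.3%) were higher and 14 (16.5%) lower, against 24.1% and 25.9% of all transcripts detected on all arrays. Of the 57 higher genes, 38 lay above all 9 tissue arrays and 36 differed at least 2-fold. Of the 33 lower genes, 17 lay below all 9 and 19 differed at least 2-fold. With undetected groups at their lowest detected level, 29 higher and 13 lower genes reached 2-fold, and 19 of the 33 lower genes were undetected in BMDM. No share over all transcripts is given for these counts outside the tissue arrays or at 2-fold, so they describe the 152 genes only. Within the dimmer set, BMDM minus the mean of the 4 tissue arrays kept its sign for 56 of the 57 and for 33 of the 33. The BMDM array and these 4 arrays also went into the calls, so the sign could hardly change. The count is no check on the array set, and no share over all transcripts is given.

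By class, 13 of 26 mitochondrial carriers were higher in BMDM and 3 lower, with a median difference of 0.49. Of 24 amino acid carriers, 12 were higher and 6 lower (median 0.57). Of 18 metal and heme carriers, 8 were higher and 0 lower (median 0.31); at an unadjusted p under 0.05 there was 1 lower gene, Slc39a1 (difference -0.51, adjusted p = 0.059). With median scaling the mitochondrial split was 2 and 2, the amino acid split 7 and 2 and the metal and heme split 5 and 0, with medians of 0.36, 0.41 and 0.13. Of 20 nucleotide sugar carriers, 6 were higher and 2 lower, and with median scaling 0 and 2. Higher and lower calls were 4 and 5 of 11 genes in the sugar carrier families, not all of which carry sugar. Inorganic ion carriers had 3 and 4 of 13, and carboxylate and fatty acid carriers 3 and 3 of 10. Carriers of peptides, organic ions and other substrates had 3 and 4 of 15. The 4 genes that share the name only had 0 and 2 (1 and 2 at an unadjusted p under 0.05, limma). Nucleoside, vitamin and choline carriers had 5 higher and 4 lower of 11, but 1 and 4 with median scaling, which also gave 0 and 3 for the peptide, organic ion and other carriers.

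The largest higher values outside the tissue range were those of Slc6a8, Slc39a4, Slc41a2, Slc39a6, Slc27a1 and Slc7a11. Slc6a8 was 5.56 ± 0.18 (SE, log2) above the tissue mean (adjusted p = 7.33e-06). Slc39a4 was 3.18 ± 0.22 above it, Slc41a2 2.55 ± 0.24, Slc39a6 2.52 ± 0.18, Slc27a1 2.41 ± 0.24 and Slc7a11 2.33 ± 0.22, with adjusted p between 5.88e-05 and 0.000267 (limma). Slc39a4 was detected on the splenic and BMDM arrays only. Without the BMDM array it would not have passed the detection rule, so its call is a description and no support. The same holds for the higher calls of Slc38a1, Slc6a9 and Slc19a3. The neutral amino acid carriers Slc7a8 (2.02 ± 0.15) and Slc1a5 (1.87 ± 0.22), the glucose transporter Slc2a1 (2.28 ± 0.24) and the phosphate importer Slc20a1 (1.94 ± 0.26), named after their values were seen, also lay above every tissue array. Undetected tissue arrays make some of these differences smaller as bounds: with them at the lowest detected level, Slc6a8 was at least 35.5-fold and Slc39a4 at least 6.5-fold above the tissue mean. A further probe of Slc20a1, detected on 3 arrays, had BMDM at 6.03, with a difference of 0.17 from the tissue mean. There the alveolar (6.35), Kupffer (6.04) and intestinal arrays (6.09 and 6.41) lay above BMDM. The further probe of Slc7a8, detected on 2 arrays, was highest in BMDM (7.26).

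Among genes below every tissue array, the largest lower values were those of Slc9a3r2, Slc22a17, Slc15a2, Slc14a1, Slc9a9 and Slc35a5. None was detected in BMDM, so the measured differences rest on a signal below detection. Slc9a3r2 was -3.88 ± 0.19 from the tissue mean (adjusted p = 1.83e-05), Slc22a17 -3.20 ± 0.22, Slc15a2 -3.02 ± 0.16, Slc14a1 -3.01 ± 0.16, Slc9a9 -2.58 ± 0.20 and Slc35a5 -1.75 ± 0.24. With BMDM at its lowest detected level, Slc9a3r2 was at least 6.2-fold below the tissue mean, Slc15a2 at least 3.14-fold, Slc14a1 at least 2.91-fold, Slc22a17 at least 2.84-fold, Slc9a9 at least 2.7-fold and Slc35a5 at least 1.26-fold. Slc16a9 (-2.44) and Slc45a3 (-2.35) were also called lower and were undetected in BMDM, but lay inside the range of the tissue arrays. All 12 of these calls held in every alternative tried, up to 19 each, among them the fits without the alveolar, Kupffer or splenic array.

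**Figure D4:**
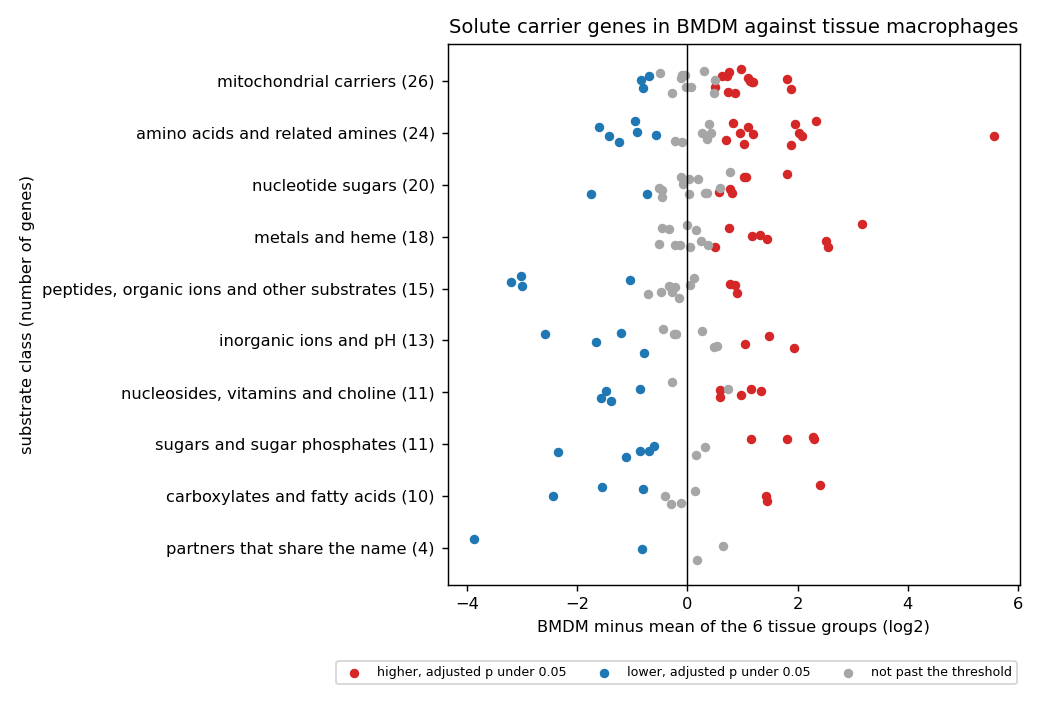
BMDM level minus the mean of the 6 tissue groups (log2, x axis) for each of the 152 solute carrier genes by substrate class (y axis, number of genes in brackets); 1 point is 1 gene, red and blue are genes past the limma test, grey are the others, and the vertical place within a row has no meaning. Red points are the majority of calls among mitochondrial (13 of 16), amino acid (12 of 18) and metal and heme carriers (8 of 8), and the point farthest right is Slc6a8 at 5.56.

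Several genes stood high in 2 groups at once. These were found after their values were seen and were not tested: by measured means both groups lay at least 2-fold above each of the others, with no overlap of arrays and detection on every array of both. Kupffer cells and splenic macrophages shared 6 such genes (3.95% of the 152, where 1.03% of all transcripts were so), namely Slc45a3, Slc16a9, Slc1a2, Slc8b1, Slc44a2 and Slc25a26. The lower of the 2 groups was at least 15.6-fold above every other group for Slc45a3 and 23.2-fold for Slc16a9, against at least 1.11-fold for Slc1a2 and between 2.02 and 2.35-fold for the other 3. Slc8b1, the mitochondrial sodium and calcium exchanger, was at 13.51 and 13.55 on these arrays and between 10.87 and 12.29 elsewhere. Alveolar macrophages and BMDM shared 3 (background 0.752%), the amino acid carriers Slc7a5, Slc7a11 and Slc38a1. Kupffer and intestinal macrophages shared Slc27a2 and Slc4a8 (background 0.216%), and peritoneal and adipose macrophages Slc10a6 and Slc35e3 (0.363%). The remaining pairs had 1 gene each: Slc27a1 in adipose macrophages and BMDM (0.164%), Slc52a3 in alveolar and intestinal (0.536%), Slc7a2 in peritoneal and alveolar (0.398%), Slc9a3r2 in peritoneal and intestinal (0.138%) and Slc6a9 in splenic macrophages and BMDM (0.0605%). Slc6a9, a glycine transporter, was at 7.43 on the splenic and 6.64 on the BMDM array, where 6 and 1 of the 8 erythroid markers were detected. Where the next group was undetected the bound can lie under 2-fold: besides Slc1a2, it was at least 1.12-fold for Slc38a1, 1.18-fold for Slc27a2 and 1.24-fold for Slc6a9, and at least 2.07-fold for Slc4a8 and 2.17-fold for Slc10a6. These 6 genes and Slc45a3 were detected in the 2 groups of their pair only. They passed the detection rule through those groups, so the pair counts and shares that hold them are descriptions and no support.

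Replicate arrays of a group lay close together. Over the 152 genes, the log2 difference of a group's replicates had an SD of 0.429 for peritoneal, 0.214 for intestinal and 0.246 for adipose macrophages, and 5 genes differed by over 1 between the peritoneal arrays, Slc10a4 the most (1.58). Of the 152 genes, 34 had further detected probes, 42 in all. Of these, 25 had the same highest group as the probe used, and the correlation over the 10 arrays, which share all their libraries, had a median of 0.54. It was over 0.8 for 12 probes and under 0.5 for 18, so single-probe patterns of some genes were not shared by their other probes. For Slc14a1 all 3 further probes were highest in adipose macrophages, and for Slc4a8 the further probe was highest in intestinal macrophages (r = 0.917). But a further probe of Slc16a10 and that of Slc44a1 were highest in adipose macrophages (r = 0.436 and 0.519). For Slc11a2 a further probe was highest on the intestinal arrays (8.62 and 8.72, against 8.65 in BMDM). The further Slc44a2 probes were highest on the splenic array, but BMDM (6.79 and 6.83) lay above Kupffer cells (6.27 and 6.82). Its place in the Kupffer and splenic pair rests on the probe used.

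Other transport genes, taken by symbol, are read against the 81% of all transcripts that differed among the groups. Of the ABC transporters detected on at least 2 arrays, 18 of 21 differed among the groups, of the V-ATPase subunits 10 of 14, of the P-type pumps 10 of 10, of the organic anion transporters named Slco 4 of 4 and of the Mfsd genes 12 of 13. Slco2b1, an organic anion carrier, was at 12.39 on the alveolar, 13.65 on the splenic, 13.38 and 13.19 on the intestinal, and 13.59 and 13.64 on the adipose arrays. It was at 8.60 in BMDM, and the Kupffer and peritoneal arrays did not detect it. Abcc3, an exporter of conjugated organic anions, was highest on the splenic array (12.75) and undetected on the alveolar one. Atp6v1a, a catalytic subunit of the vacuolar proton pump, was highest in BMDM (11.91) and lowest on the intestinal arrays (6.62 and 6.54). Atp2a3, a calcium pump of the endoplasmic reticulum, was highest on the peritoneal arrays (12.85 and 12.73) and lowest on the Kupffer array (6.51).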

How the data were processed

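Illumina mouse bead arrays measured the RNA of 10 macrophage samples. Per the file headers, the deposited table gives 46632 probes with their intensity (linear, not normalized between arrays) and detection p-value on each array. The authors' series values are linear intensity and look quantile normalized; no source used here gives the method. No per-sample column stayed unused.

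The neqc function (limma 3.58.1 in R 4.3.3, offset 16) estimated background through the detection p-values, then quantile normalized the signals and took log2. Probe names come from the platform annotation, where 29976 probes carry 1 symbol, 10 several and 16646 none. A gene was its brightest probe by the authors' values among those detected (p under 0.01) by at least 2 arrays; an unnamed probe stood alone. This left 11566 transcripts (8388 named genes, 3178 unnamed probes). All 152 solute carrier genes had a gene identifier in the gene table.

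Arrays were grouped by labelled tissue. One limma model with a mean for each of 7 groups (lmFit, eBayes, 3 residual and 4.03 prior degrees of freedom, prior SD 0.186) was fitted to all transcripts, with Benjamini-Hochberg adjustment over all of them and a threshold of 0.05. Where no array of a group detected a probe, folds are set against that array's lowest normalized value of a detected probe and written "at least". The p-values belong to the measured means and not to these bounds. Precision is limited by the number of arrays. The model was tested on simulated data.

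Substrate classes follow the family number, with families not listed put under other substrates. The members, lists and tests were chosen with earlier results of these data known. Genes were named by rule: up to 5 set apart as higher and 3 as lower per group, the 6 highest and 6 lowest in BMDM outside the tissue range, and the 4 widest and 1 narrowest per class. Alternatives were the background correction, scaling, offset, filters, probe, array set or replicate number as a block, and each array left out.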

Additional observations from a re-analysis of the deposited data

How the results depend on the processing

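The count of 128 solute carrier genes that differed among the groups stayed between 103 and 140 under the 10 other settings and between 112 and 143 with 1 array left out. The count lower in BMDM (33) ran from 28 to 42 with 1 array left out, and the count higher (57) from 50 to 69, but median scaling gave 24 higher genes. Median scaling moved whole arrays, by -0.87 (alveolar) to 0.37 (adipose) in the median of all transcripts. Counts of genes set apart changed most. As higher in any group (16), median scaling gave 6, and arrays left out gave 8 to 23. Without background correction the intestinal count (2) was 0 and the Kupffer count (1) was 2, and the authors' values gave the same 0 and 2. Under median scaling the counts were 0 for peritoneal (1), alveolar (2) and Kupffer, 2 for splenic (6) and 1 for BMDM (4). The Kupffer count was 2 with offset 50, with no detection filter and with dim transcripts left out, and 3 with detection on at least 1 array or array set as a block. The peritoneal count was 0 with detection on 1 array, with no filter and with the replicate block. The intestinal count was 1 without dim transcripts, and the BMDM count 7 with array set as a block. Arrays left out gave 0 to 1 for peritoneal, 0 to 2 for alveolar, 0 to 3 for Kupffer, 3 to 8 for splenic and 0 to 3 for intestinal macrophages and 3 to 6 for BMDM. As lower in any group (8), the count was 3 without background correction, 0 with median scaling, 1 with the authors' values, 4 with offset 50, 5 with no detection filter, 5 with the next-brightest probes, 4 with the replicate block and 1 to 12 with arrays left out. By group in that order of settings, peritoneal (2) was at 1, 0, 0, 1, 1, 0 and 1, and splenic (2) at 0, 0, 0, 1, 1, 2 and 0. Intestinal (2) was at 0, 0, 0 and 0 in the first 4 of them. Adipose (1) was at 0 with median scaling, no filter, next-brightest probes, array set as a block and the replicate block, and BMDM (1) at 0 with median scaling and the authors' values. Arrays left out gave 1 to 4 for peritoneal, 0 to 2 for alveolar (0), 0 to 3 for splenic, 0 to 2 for intestinal, 0 to 2 for adipose and 0 to 1 for BMDM. The cause of these changes was not tested. The low peritoneal level of Slc37a2 reversed to 0.336 with its other probe. Replicate numbers did not pair the samples (correlations of the differences between replicates 0.049, -0.159 and -0.113 for the 3 pairs of groups), and the replicate block gave 119 genes that differed. Detection limits what is seen of dim genes: 67 of the 152 were undetected on at least 1 array.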

Other observations

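Because detection on at least 2 arrays was required, a gene confined to a population with 1 array could not be among the 152. Of the 27 solute carrier symbols detected on 1 array, 6 were on the alveolar array, 5 on the Kupffer array, 4 on the splenic array, 4 on the BMDM array and 8 on the intestinal or adipose arrays. On the alveolar array these included Slc6a4, the serotonin transporter, at 9.94 (4.79 to 5.12 elsewhere), and the sodium and proton exchangers Slc9a4 at 8.52, Slc9a7 at 8.11 and Slc9a2 at 7.86, on the array with 4 of 9 lung epithelial and 8 of 11 endothelial markers detected. On the Kupffer array they included Slc25a47 at 10.00, Slc12a8 at 9.23, the bile acid importer Slc10a1 at 7.35 and Slc27a5 at 6.82, on the array with 9 of 13 hepatocyte markers detected. On the splenic array Slc4a1, the red cell anion exchanger (band 3), was at 12.83 (4.82 to 5.51 elsewhere) and Slc38a5 at 7.66, with 6 of 8 erythroid markers detected. On the BMDM array Slc39a14, a zinc and iron importer, was at 7.13 (4.61 to 5.38 elsewhere). These are values of single arrays with no replicates, and the part of other cells in them was not tested.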
